A study of Mus musculus with 12 samples.

Results

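The 10 genes Sall4, Lin28a, Utf1, Tdgf1, Fgf4, Dppa2, Dppa4, Dppa5a, L1td1 and Fbxo15 are genes of mouse pluripotent cells, and their signals were followed here through neurospheres derived from fibroblasts. They were taken from a given list of names, chosen with earlier results of these data known, and make up 10 of the 13650 genes tested. Each gene was read from the probe set (a group of short probes on the array) that names only that gene and had the highest mean signal over the 12 arrays. In all, 18 probe sets named only 1 of these genes, and 16 of them reached a signal of 20 on at least 1 array, so each gene had at least 1. The level of a gene on an array is also given as a share, in percent, of the mean of its signals in the iPS and ES cells.

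The study measured RNA of 12 mouse cultures on Affymetrix arrays, 1 array a culture. Neurospheres derived from adult fibroblasts were grown with EGF and cAMP (adult-derived 1) or with LIF (adult-derived 2), and those from embryonic fibroblasts with LIF (embryonic-derived 3) or with LIF and cAMP (embryonic-derived 4). The references were adult skin fibroblasts, neurospheres of the ganglionic eminence (GE) at embryonic day 14, the iPS line 38C2, the ES line EB3, and a primary and a secondary neurosphere culture from each of these 2 lines. The neurospheres were kept in MHM medium, and the mice were C57BL/6 apart from the iPS and ES cells, whose strain, like the age of the fibroblast donors, is not given in the sources used here. How the fibroblasts were converted, and any transgene the cells carry, is not given there either, embryonic fibroblasts were not measured, and the iPS and ES cells are 1 line each. Nothing in the labels marks the arrays of a group as repeats of one culture, and they differ in medium or in line. The p-values therefore measure only the spread between these arrays.

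Pluripotent cells hold a transcription network around Pou5f1, Sox2 and Nanog that keeps them dividing without taking on a fate, and the 10 genes belong to its outer circle of partners and targets. Some of their products act in the nucleus (Sall4, Utf1, Dppa2, Dppa4), some bind RNA (Lin28a, L1td1, Dppa5a) and some carry signals at the cell surface (Fgf4, Tdgf1). Neural stem cells of the brain switch most of these genes off, while Lin28a stays on for some time in the early neural tube.

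Promoters are shown because the 10 genes varied together over the arrays. RefSeq windows on the build GRCm38.p6, from 250 bases before to 50 after the start of the gene, were matched for 5 of the 10 genes (Lin28a, Utf1, Tdgf1, Fgf4 and L1td1). Each was searched on both strands for the octamer ATGCAAAT, which Pou5f1 binds, the Sox core ACAATGG, the Klf-type GC box GGGCGTGG and the Esrrb motif TCAAGGTCA. The GC box was in 2 of the 5 windows, those of L1td1 and Tdgf1, and in 5.33% of all 32851 windows of this length. The other motifs were in 0 of the 5 windows, and in 1.735% (octamer), 3.662% (Sox core) and 0.4231% (Esrrb motif) of all windows, so no motif overlapped another. These 2 windows are printed 5′ to 3′ with the GC box in capitals. L1td1 is on chr4:98726504-98726803 (plus strand) and Tdgf1 on chr9:110946109-110946408 (minus strand). A match describes the letters only.
L1td1: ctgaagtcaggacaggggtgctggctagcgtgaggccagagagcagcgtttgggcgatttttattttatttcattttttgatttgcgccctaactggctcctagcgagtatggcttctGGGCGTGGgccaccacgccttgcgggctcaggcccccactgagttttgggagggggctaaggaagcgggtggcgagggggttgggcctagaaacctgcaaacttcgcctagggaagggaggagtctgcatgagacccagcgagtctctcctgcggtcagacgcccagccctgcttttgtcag
Tdgf1: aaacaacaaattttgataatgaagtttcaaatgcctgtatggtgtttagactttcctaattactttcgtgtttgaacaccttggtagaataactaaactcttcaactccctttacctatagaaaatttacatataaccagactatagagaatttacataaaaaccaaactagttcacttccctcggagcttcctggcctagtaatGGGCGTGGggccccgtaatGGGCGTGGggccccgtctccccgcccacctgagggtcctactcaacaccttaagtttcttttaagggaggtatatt

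The labels of the cultures were set against marker genes. All 7 neural stem cell markers (Sox1, Fabp7, Olig2, Pax6, Sox9, Slc1a3, Hes5) were above 20 in the GE neurospheres, where they summed to 13668, and they summed to 7006 to 11240.2 in the primary and secondary neurospheres. In the fibroblast-derived neurospheres the sum was 857 and 937 (adult) and 346 and 269.5 (embryonic), beside 332 in iPS and 119.9 in ES cells, with 1 of the 7 under 20 in each adult-derived and 2 in each embryonic-derived culture. Hes5 was at 0.7 and 1.9 in the embryonic-derived cultures. Sums of 4 pluripotent markers (Pou5f1, Nanog, Zfp42, Esrrb) were 1962 and 2617 (adult-derived), 4269 and 4548 (embryonic-derived), 9525 (iPS) and 9904 (ES). In bulk RNA, fewer cells with a gene and less RNA of it per cell cannot be told apart. The share of probe sets at 20 or more was 40.5% to 49.1% over the 12 arrays.

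The 10 genes were near background in adult fibroblasts and stood at an unequal part of the pluripotent level in the neurospheres made from fibroblasts. On adult-derived 1, Dppa4 (9.3) and Lin28a (16.3) were under 20, and so dim. On the fibroblast array every one of the 10 signals was between 0.2 and 8.1. The median share of the 10 genes was 7.09% in adult-derived 1, 38.9% in adult-derived 2, 54.1% in embryonic-derived 3 and 52.6% in embryonic-derived 4. It was 0.215% in fibroblasts and 0.0947% in GE neurospheres. At least 50% of the pluripotent level was reached by 1, 3, 6 and 6 of the 10 genes on the 4 arrays in that order. Of 3591 other genes at 200 or more in both pluripotent arrays, 86.0%, 85.3%, 82.5% and 81.8% reached it.

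**Figure D1:**
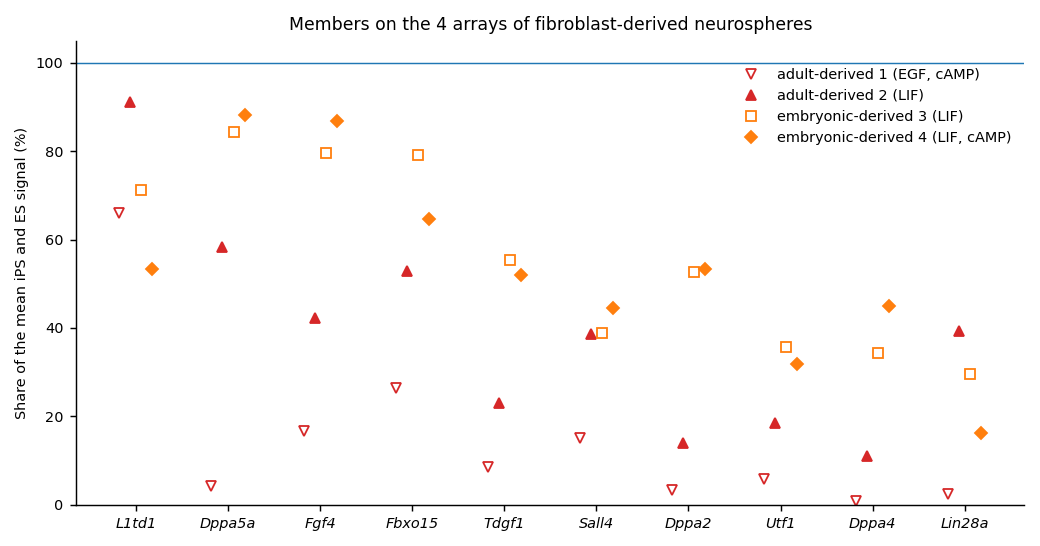
Share of the mean iPS and ES signal (percent, vertical axis) for each of the 10 genes on the 4 arrays of fibroblast-derived neurospheres, 1 point an array. L1td1 lies between 53.3% and 91.2% on all 4 arrays, while Dppa5a runs from 4.21% to 88.2%.

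Genes differed in how much of the pluripotent level they reached. L1td1 had the highest mean share over the 4 arrays, 70.4% ± 15.8 (SD, n = 4), and the narrowest band relative to it. Dppa5a (58.8% ± 38.7), Fgf4 (56.4% ± 32.9) and Fbxo15 (55.8% ± 22.4) followed, and then Tdgf1 (34.7% ± 22.7), Sall4 (34.3% ± 13.1) and Dppa2 (30.9% ± 26.0). Utf1 (22.9% ± 13.6), Dppa4 (22.8% ± 20.4) and Lin28a (21.8% ± 16.0) were lowest. No 2 neighbours in this order are further apart than their SDs, while the shares of L1td1 and Lin28a do not overlap. That rests on the mean of the 2 lines as reference, and against the iPS array alone they overlap. Lin28a on adult-derived 2 was at 262.5 beside 275.6 in iPS cells, and L1td1 on embryonic-derived 4 at 1597.8 beside 1922.5. The place of Sall4 depends on its probe set, as a dimmer one had shares of 67.6% to 139%.

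The 10 genes can be read beside others with the same restriction. Besides the 10, another 57 genes had at least 200 in both pluripotent arrays and at most 5% of their pluripotent mean in fibroblasts and in GE neurospheres, which the 10 all met. The median share of these 57 was 17.2% and 28.3% in the adult-derived cultures and 37.9% and 40.2% in the embryonic-derived ones. So the 10 genes had the lower median on adult-derived 1 and the higher one on the other 3 arrays. Of the 57, 10 and 13 were at 50% or more on the adult-derived arrays, and 22 on each embryonic-derived array. Among all 3591 other genes at 200 or more in both pluripotent arrays the medians were 73.9% to 82.7%.

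**Figure D2:**
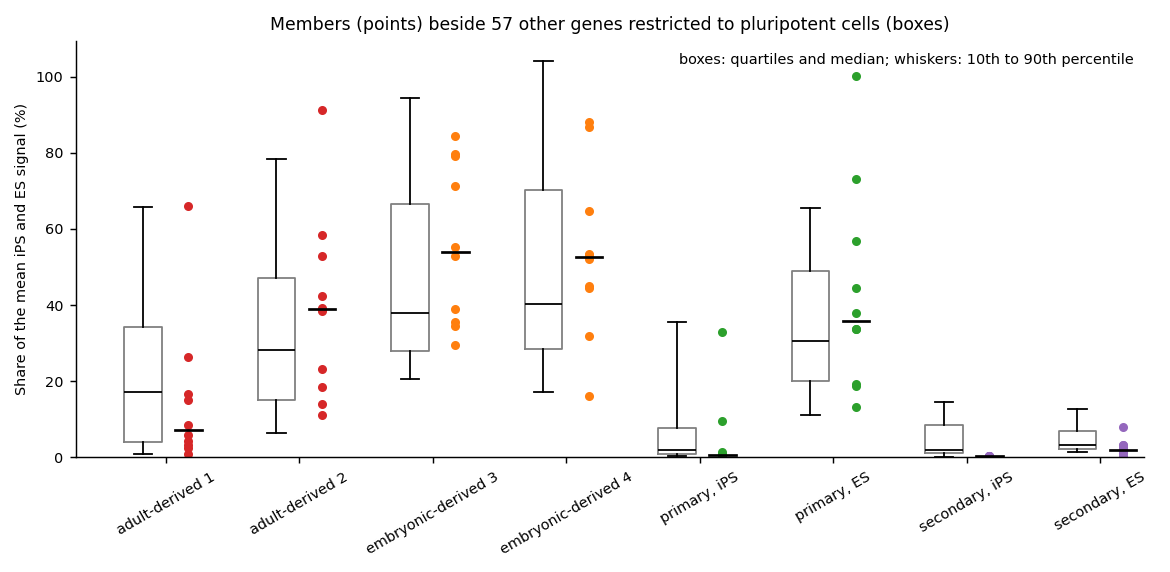
Share of the mean iPS and ES signal (percent) of the 10 genes (points, with a bar at their median) and of 57 other genes (boxes: quartiles and median; whiskers: 10th to 90th percentile) on 8 arrays. The 57 were chosen as bright in both pluripotent arrays and low in fibroblasts and GE neurospheres. Other cultures did not enter that choice, and some of the 57 were above the pluripotent level there. The bar lies under the median of the box on adult-derived 1 (7.09% against 17.2%) and above it on embryonic-derived 3 (54.1% against 37.9%).

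Of the signalling genes, Fgf4 encodes a secreted growth factor that acts through FGF receptors and the ERK pathway. Its signal was 119.3 and 303.1 in the adult-derived cultures, 570.4 and 622.9 in the embryonic-derived ones, 694.3 in iPS and 738.8 in ES cells, and 0.2 in fibroblasts. The 4 neurosphere arrays lay below both pluripotent arrays, the embryonic pair close beneath them and the adult pair further down. In neurospheres from the 2 lines Fgf4 was at 3.2 (iPS) and 133.6 (ES) in primary and at 0.4 and 9.3 in secondary cultures.

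Tdgf1 (Cripto) is a membrane-anchored co-receptor through which Nodal signals. It was at 240.0 and 655.9 in the adult-derived and 1574.1 and 1478.6 in the embryonic-derived cultures, beside 2998.5 in iPS cells, 2686.4 in ES cells and 0.2 in fibroblasts. Again the order was fibroblasts, adult-derived, embryonic-derived, pluripotent, with no overlap between these sets. Primary neurospheres read 0.2 (iPS) and 372.9 (ES), and secondary ones 2.6 and 11.9. Over the 12 arrays Fgf4 and Tdgf1 had the closest profiles of all 45 pairs among the 10 genes (Pearson r = 0.995).

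Among the nuclear proteins, Sall4 is a zinc finger factor that works beside Pou5f1. Its signals were 287.5 and 731.8 (adult-derived), 740.1 and 846.2 (embryonic-derived), 1508.0 (iPS) and 2290.1 (ES), with 0.3 in fibroblasts and 0.7 in GE neurospheres. Adult-derived 1 stood apart at the low end, and the other 3 neurosphere arrays were close to each other. Primary neurospheres had 181.4 (iPS) and 1081.4 (ES), the latter above all 4 fibroblast-derived cultures, and secondary ones 2.9 and 20.1. A dimmer probe set of Sall4 read 68.0 and 130.1 (adult-derived) and 140.1 and 132.7 (embryonic-derived) beside 89.0 (iPS) and 112.2 (ES), so on it 3 of the 4 arrays were above both pluripotent arrays.

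Utf1 encodes a chromatin-bound coactivator of ES cells. It read 45.6 and 146.1 in adult-derived, 283.2 and 253.4 in embryonic-derived cultures, 615.8 in iPS cells, 973.0 in ES cells and 3.5 in fibroblasts. The highest neurosphere array was at 35.6% of the pluripotent level, and all 4 lay below both pluripotent arrays. In primary neurospheres it was at 11.5 (iPS) and 300.5 (ES), and in secondary ones at 3.4 and 25.2.

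Dppa2 and Dppa4 lie next to each other on chromosome 16 and encode partner proteins that bind chromatin at developmental promoters. Dppa2 had 37.6 and 159.9 in the adult-derived, 601.6 and 608.6 in the embryonic-derived cultures, 651.7 in iPS cells, 1628.2 in ES cells and 3.4 in fibroblasts. Dppa4 had 9.3, 126.5, 390.7 and 511.0 on the same 4 neurosphere arrays, 875.9 in iPS cells, 1395.0 in ES cells and 4.7 in fibroblasts. Both had the same order over the 4 neurosphere arrays, all of them below both pluripotent arrays, and on adult-derived 1 Dppa4 was within the range of dim probe sets. Primary neurospheres showed 5.4 (iPS) and 506.7 (ES) for Dppa2, and 5.8 and 383.7 for Dppa4.

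Of the RNA-binding proteins, Lin28a blocks the maturation of let-7 microRNAs. Its signals were 16.3 and 262.5 (adult-derived), 197.7 and 108.0 (embryonic-derived), 275.6 (iPS) and 1062.7 (ES), with 4.4 in fibroblasts. Here adult-derived 2, not the embryonic pair, was highest, just under the iPS array, while adult-derived 1 was under 20. Primary neurospheres had Lin28a at 220.6 (iPS) and 670.6 (ES), which is 33.0% and 100.2% of the pluripotent level, and secondary ones had 2.5 and 12.5. Of the 10 genes it was the one with the highest share in both primary cultures.

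L1td1 descends from the RNA-binding protein of the LINE-1 transposon. It was at 1977.4 and 2736.1 in adult-derived, 2139.0 and 1597.8 in embryonic-derived cultures, 1922.5 in iPS cells and 4077.1 in ES cells, against 1.4 in fibroblasts. The neurosphere arrays lay around the iPS value and all below the ES value, so the groups overlap. L1td1 is the only one of the 10 with more than 50% on adult-derived 1. In primary neurospheres it was at 7.9 (iPS) and 1010.9 (ES).

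Dppa5a encodes a small protein with an RNA-binding KH fold. The signals were 258.9 and 3587.5 (adult-derived), 5190.4 and 5424.5 (embryonic-derived), 6115.0 (iPS) and 6191.9 (ES), with 8.1 in fibroblasts. The embryonic pair was just below the pluripotent pair, and adult-derived 1 far below all others. Primary neurospheres split into 24.8 (iPS) and 4501.9 (ES), and secondary ones into 10.6 and 487.0.

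Fbxo15 encodes an F-box protein and is known as a reporter gene for reprogramming, since ES cells can do without it. It had 338.7 and 680.4 in adult-derived, 1017.8 and 832.2 in embryonic-derived cultures, 477.7 in iPS cells, 2095.0 in ES cells and 4.9 in fibroblasts. The iPS array was lower than 3 of the 4 neurosphere arrays, so the groups overlap. Primary neurospheres had 9.3 (iPS) and 246.7 (ES), and secondary ones 4.1 and 21.1.

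**Figure D3:**
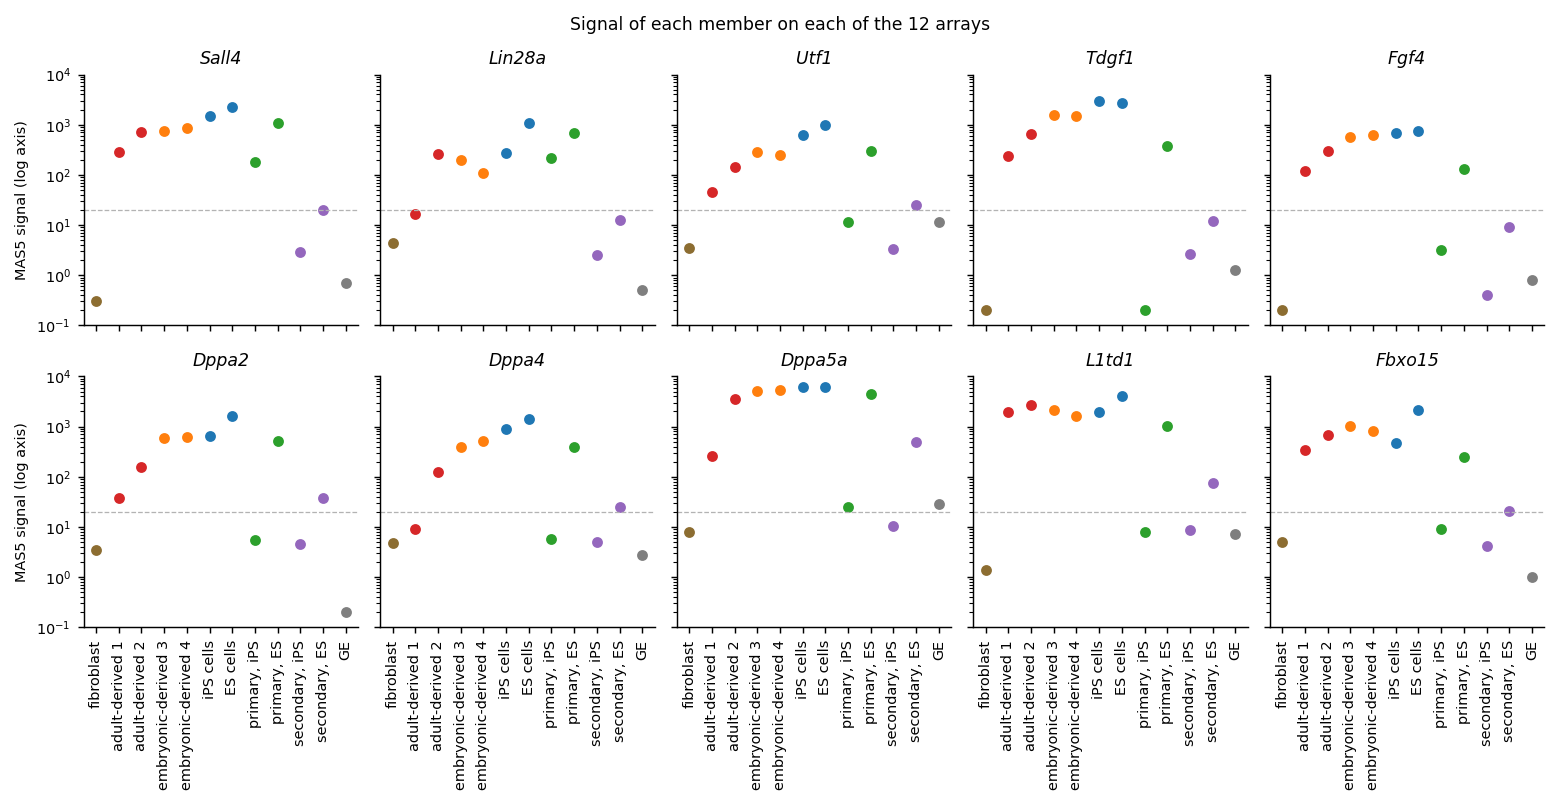
MAS5 signal (log axis) of the 10 genes on each of the 12 arrays, 1 point an array; the dashed line marks 20, under which probe sets are dim. In fibroblasts all 10 points are at 8.1 or lower, and in the embryonic-derived cultures all are at 108.0 or higher.

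Against the pluripotent cells, the neurosphere signals lay below for most of the genes, by amounts that this design resolves poorly. In 8 of the 10 genes all 4 neurosphere arrays lay below both pluripotent arrays, the exceptions being L1td1 and Fbxo15. Over all genes 18.9% did so. On the log2(signal + 5) scale the differences ran from -2.99 (Dppa4) and -2.36 (Lin28a) to -0.59 (Fbxo15) and -0.43 (L1td1), with a median of -1.74 beside 0.16 for all genes tested. In the limma fit of all 12 arrays in 7 groups, 0 of the 10 were called at an adjusted p under 0.05, while 9.77% of all genes were called lower (30.2% in either direction). At an unadjusted p under 0.05 there was 1, Lin28a (difference -2.36 ± 0.99 SE, limma adjusted p = 0.105, all 4 arrays below both pluripotent arrays). On the log2 scale L1td1 and Fbxo15 turned positive (0.11 and 0.47) without the ES array.

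The errors in that fit are shared by all groups, and in 9 of the 10 genes, all but Lin28a, the iPS- and ES-derived primary neurospheres differed more than any other pair did. The SD of the 10 genes within the primary pair was 1.12 (Lin28a) to 5.12 (Dppa5a) on the log2 scale, with a median of 3.32 beside 0.29 for all genes. The median SD of the 10 genes was 1.15 in the secondary, 1.06 in the adult-derived, 0.47 in the pluripotent and 0.12 in the embryonic-derived pair, and Lin28a varied most in the adult-derived pair (2.58). With the primary cultures fitted as separate groups, 4 of the 10 were called lower than in pluripotent cells (11.1% of all genes were). These were Tdgf1 (-1.86 ± 0.45 SE, limma adjusted p = 0.0178), Utf1 (-2.33 ± 0.59, adjusted p = 0.0212), Dppa4 (-2.99 ± 0.83, adjusted p = 0.0292) and Sall4 (-1.62 ± 0.52, adjusted p = 0.0481), whose other, dimmer probe set was at 0.17 with 12 arrays in 7 groups. Leaving out either primary array called the same genes. It is no separate check, as it too takes the spread of the primary pair out of the error. Without adult-derived 2 only Lin28a was called, and fewer genes were called over all genes than with 12 arrays. With the line of origin as a replicate block there were 2 (12.4% of all genes were called lower), Sall4 (adjusted p = 0.0264) and Utf1 (adjusted p = 0.0320).

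**Figure D4:**
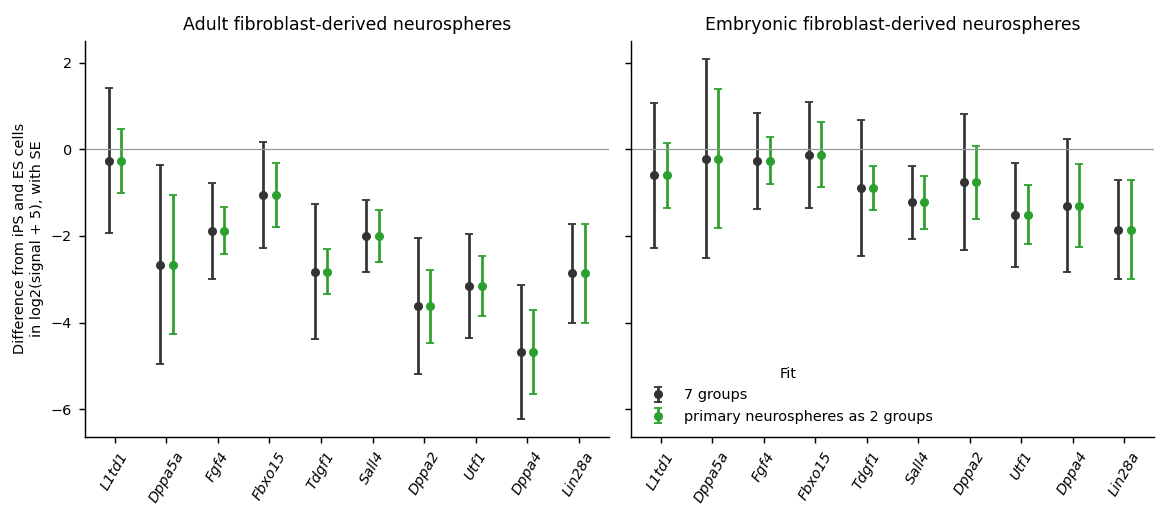
Difference from the iPS and ES cells in log2(signal + 5), with its standard error, for adult-derived (left) and embryonic-derived (right) neurospheres, 2 arrays each. Black is the fit of 7 groups and green the fit with primary neurospheres as 2 groups; the estimates are the same and the errors are narrower in green, least so for Lin28a. Under quantile normalization Dppa5a and Fbxo15 change sign in the right panel.

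The adult-derived pair was further from the pluripotent level than the embryonic-derived pair in its estimates. For the adult pair the median difference over the 10 genes was -2.74, from -4.68 (Dppa4) to -0.27 (L1td1), and for the embryonic pair it was -0.83, from -1.85 (Lin28a) to -0.12 (Fbxo15). Both comparisons share the 2 pluripotent arrays. Only the adult pair has an array without LIF (adult-derived 1, median share 7.09% beside 38.9% on adult-derived 2). Fibroblast source and medium therefore cannot be told apart. In each, 8 of the 10 genes were below both pluripotent arrays without overlap (all genes 24.9% for the adult and 27.3% for the embryonic pair). In the fit of 7 groups 0 were called for the adult pair (6.41% of all genes lower), with 5 at an unadjusted p under 0.05. The share of all genes at that unadjusted level is not given here, so the 5 cannot be weighed against it. For the embryonic pair 0 were called (7.41% lower), with 0 at an unadjusted p under 0.05.

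With the primary cultures as separate groups, 6 of the 10 were called lower in the adult pair (8.05% of all genes): Tdgf1, Dppa4, Utf1, Dppa2, Fgf4 and Sall4. The strongest was Tdgf1 (-2.82 ± 0.52 SE, limma adjusted p = 0.00937), followed by Dppa4 (-4.68 ± 0.96, adjusted p = 0.0140). Leaving out either primary array called the same genes. It is no separate check, as it too takes the spread of the primary pair out of the error. With the line of origin as a replicate block the count was 4 (Sall4, Utf1, Dppa2 and Dppa4, beside 8.97% of all genes). Without adult-derived 2 only Lin28a was called, and fewer genes were called over all genes than with 12 arrays. For the embryonic pair the separate groups again gave 0 (8.81%), and a fit of only these 4 arrays gave 4 (6.03%). The 95% interval of Fgf4 in the embryonic pair, -2.79 to 2.27 in the fit of 7 groups, covers both equality and a large difference.

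The embryonic-derived arrays were above both adult-derived arrays in 8 of the 10 genes, all but Lin28a and L1td1, and 27.6% of all genes did so. The differences of the 10 had a median of 1.63 on the log2 scale, from -0.33 (L1td1) to 3.38 (Dppa4), beside -0.00 over all genes. The limma contrast called 0 of the 10 (0.403% of all genes were called higher and 0.469% in either direction), and 0 reached an unadjusted p under 0.05. Dppa4 had the smallest p (3.38 ± 1.54 SE, unadjusted p = 0.0572, limma adjusted p = 0.443). Lin28a, at 1.0 with all arrays, was at -0.82 without adult-derived 1. Here too source and medium cannot be told apart, since adult-derived 1 is the only fibroblast-derived array without LIF.

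The media can be set side by side only on single arrays. In the adult pair all 10 genes were higher with LIF (adult-derived 2) than with EGF and cAMP (adult-derived 1), as were 50.6% of all genes, and 8 of the 10 by at least 2-fold on the log2(signal + 5) scale (8.01% of all genes). The signal ratio of LIF over EGF and cAMP was 13.9 for Dppa5a, 2.01 for Fbxo15 and 1.38 for L1td1, while Lin28a (262.5 against 16.3) and Dppa4 (126.5 against 9.3) were under 20, and so dim, on adult-derived 1. In the embryonic pair, LIF with cAMP against LIF alone, 5 genes were higher (52% of all genes) and 5 lower, and 0 differed by 2-fold (2.2% of all genes were higher by that much). Within each source a medium is on 1 array, so medium and culture cannot be told apart and there is no test. LIF alone was on adult-derived 2 and embryonic-derived 3, with median shares of 38.9% and 54.1%. There source and culture cannot be told apart.

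Fibroblast markers and the 10 genes did not keep to one order in these cultures. The sum of 6 fibroblast markers (Col1a1, Col1a2, Thy1, Pdgfra, Postn, Dcn) was 345 in adult-derived 1 and 3385 in adult-derived 2, against 1607 and 2502 in the embryonic-derived cultures and 27377 in fibroblasts. So the adult array with the lower pluripotent-cell genes also had the lower fibroblast markers. The part of other cells in these differences was not tested.

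Compared with adult fibroblasts, all 10 genes had higher signals on all 4 neurosphere arrays (44% of all genes were), and 5 were called (15% of all genes were called higher). The called genes were Sall4 (6.84 ± 0.94 SE on the log2 scale, limma adjusted p = 0.00243), Fgf4 (6.04 ± 1.24, adjusted p = 0.0106), L1td1 (8.34 ± 1.87, adjusted p = 0.0148), Fbxo15 (6.08 ± 1.37, adjusted p = 0.0149) and Tdgf1 (7.24 ± 1.75, adjusted p = 0.0197). The other 5 had estimates of 3.51 (Lin28a) to 7.44 (Dppa5a). The fibroblast side is 1 array, assumed to vary like the paired groups. With a replicate block (18.4% of all genes) or with the primary cultures separate (16.7%), 9 were called. Leaving out either primary array called the same genes as the separate primary cultures, and calls over all genes rose too. Without adult-derived 1 Lin28a joined the 5, while calls over all genes fell. Dppa4 on adult-derived 1 (9.3) and in fibroblasts (4.7) was dim in both.

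Against GE neurospheres, the brain-derived reference, all 10 again had higher signals on all 4 arrays (38.8% of all genes), and 7 were called (15.6%), the same 5 with Lin28a and Dppa2. Sall4 differed by 6.74 ± 0.94 (SE, limma adjusted p = 0.00139) and Lin28a by 4.28 ± 1.28 (adjusted p = 0.0364). GE signals were 0.2 to 28.2, the highest being Dppa5a. With the line of origin as a replicate block all 10 were called (18.4%). The call of Dppa2 was lost on leaving out any single fibroblast-derived, pluripotent or secondary array, and that of Lin28a on leaving out either embryonic-derived array.

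In both lines the signals of the 10 genes in neurospheres lay below those of the line they came from, and in primary cultures the lines stood far apart. The median share was 0.492% in iPS-derived and 35.8% in ES-derived primary neurospheres, and 0.303% and 2.04% in the secondary ones. The 57 other genes of the same restriction had 2.01% and 30.5%, then 1.97% and 3.32%. In iPS-derived primary cultures only Lin28a (33.0%) and Sall4 (9.55%) were above 2% of the pluripotent level. In the ES-derived ones all 10 were above 10%, from 13.1% (Tdgf1) to 100.2% (Lin28a).

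**Figure D5:**
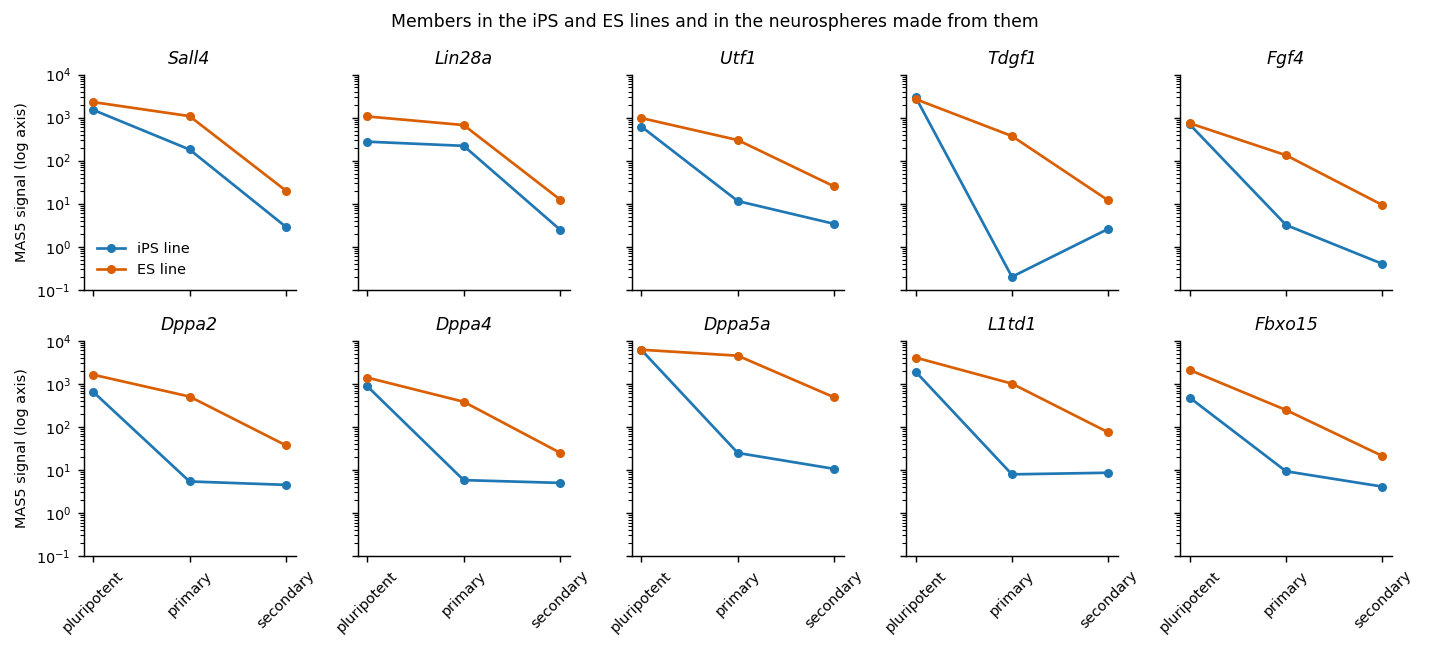
MAS5 signal (log axis) of the 10 genes in the iPS line (blue) and the ES line (orange) as pluripotent cells, primary neurospheres and secondary neurospheres, 1 array a point. Lin28a is little lower in primary neurospheres than in pluripotent cells of both lines (220.6 against 275.6 and 670.6 against 1062.7), while Dppa5a is at 24.8 in the iPS line and 4501.9 in the ES line.

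Tests over both lines called 3 genes lower in primary neurospheres than in pluripotent cells (10.8% of all genes): Fgf4 (-4.42 ± 1.11 SE, limma adjusted p = 0.0193), Tdgf1 (-6.00 ± 1.57, adjusted p = 0.0223) and Fbxo15 (-4.07 ± 1.22, adjusted p = 0.0367). In 9 of the 10, all but Lin28a, both primary arrays were below both pluripotent arrays (29% of all genes). Without the iPS-derived primary array 1 was called and without the ES-derived one 9, while over all genes 1555 and 4539 were called in either direction, against 4109 with 12 arrays. Without the iPS array 1 was called (3938 genes), and without the ES array 0 (2604). The call of Fbxo15 was lost on leaving out any single fibroblast-derived array. A replicate block gave 8 (14.4% of all genes), all but Lin28a and Dppa5a. Lin28a differed by -0.49 with all arrays, by 0.30 without the iPS-derived primary array and by 0.48 without the ES array.

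Secondary neurospheres were below pluripotent cells in all 10 genes without overlap (32.2% of all genes). In the limma fit 9 were called (18.4% of all genes lower), with differences from -5.58 (Lin28a) to -7.97 (Tdgf1). Sall4 had the smallest adjusted p (-7.05 ± 0.84 SE, limma adjusted p = 0.000464). Dppa5a, at 487.0 in the ES-derived culture, was at -6.14 ± 2.31 (adjusted p = 0.0578), and it was called with a replicate block (21% of all genes were lower). Without the ES array or the iPS-derived secondary array 6 were called, with Dppa2, Dppa4 and L1td1 lost (4620 and 4628 genes of all called in either direction, against 6099).

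Between the lines, ES signals were the higher ones. ES cells exceeded iPS cells in 9 of the 10 genes (41.7% of all genes), all but Tdgf1, and by at least 2-fold in 4 (5.47%): Fbxo15 (4.39-fold), Lin28a (3.86-fold), Dppa2 (2.50-fold) and L1td1 (2.12-fold). In primary neurospheres all 10 were higher in the ES line (54.6%) and all by at least 2-fold on the log2(signal + 5) scale (11.1%), with a median difference of 4.69. In secondary neurospheres this held for all 10 too (51.3% higher, 6.68% by 2-fold), with a median of 1.63, though all 10 iPS-derived secondary signals were dim (10.6 or lower). Those of Fgf4 (9.3), Tdgf1 (11.9) and Lin28a (12.5) were under 20 in the ES-derived secondary culture as well, so both sides were dim. Each comparison of the lines is 1 array against 1, so line and culture cannot be told apart.

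The fibroblast-derived cultures were also set against these stages. Against primary neurospheres 3 genes were called higher (15.6% of all genes), namely Fgf4 (3.35 ± 0.96 SE, limma adjusted p = 0.0304), Fbxo15 (3.48 ± 1.06, adjusted p = 0.0375) and Tdgf1 (4.15 ± 1.36, adjusted p = 0.0485). L1td1 and Fbxo15 did not overlap (24.8%). Lin28a was at -1.87 ± 0.99 (adjusted p = 0.191), the only one of the 10 with a negative estimate. Calls fell to 0 without the iPS-derived primary array or without either embryonic-derived array, and were 8 without the ES-derived primary array. Over all genes 1815, 2956, 2841 and 3955 were called in either direction in these settings, in the order iPS-derived primary, embryonic-derived 3, embryonic-derived 4 and ES-derived primary, against 4080 with 12 arrays. Tdgf1 was not called without either pluripotent or either secondary array. Without adult-derived 1 the call was Fgf4 alone, and without adult-derived 2 it was Lin28a alone, as lower. Without the iPS-derived primary array, Sall4 (-0.84), Utf1 (-0.98), Dppa2 (-1.18), Dppa4 (-1.47) and Dppa5a (-0.99) turned negative. A replicate block (18.1% of all genes higher) added L1td1 to the 3.

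Against secondary neurospheres 7 were called higher (17% of all genes), all but Dppa2, Dppa4 and Dppa5a, led by Sall4 (5.43 ± 0.72 SE, limma adjusted p = 0.000931) and Fgf4 (5.29 ± 0.96, adjusted p = 0.00405). In 8, all but Dppa4 and Dppa5a, the groups did not overlap (29.4%). Only the calls of Sall4 and Fgf4 held without the iPS-derived secondary array. Those of Lin28a and Utf1 were lost without the ES-derived one, adult-derived 2 or either embryonic-derived array, and over all genes calls fell there too. Utf1 alone was lost without either pluripotent array, while calls over all genes rose. Without either primary array calls rose both among the 10 genes and over all genes. Over all genes 2447 were called in either direction without the iPS-derived secondary array and 2429 without the ES-derived one, against 4591 with 12 arrays. With a replicate block (19.9%) 9 were, all but Dppa4.

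Other genes of the same pathways were read from lists of names. Of 39 other pluripotency genes, 35 were tested, and 14 were lower in the fibroblast-derived neurospheres than in pluripotent cells, with 0 higher, where 9.77% of all genes were called lower and 20.4% higher. At an unadjusted p under 0.05 there were 20. Their median difference was -1.47, beside -1.74 for the 10 genes. The smallest adjusted p values were those of Trim28, a corepressor (-0.98 ± 0.17 SE, limma adjusted p = 0.00440), Fgf17 (-2.89 ± 0.53, adjusted p = 0.00546), Esrrb, a nuclear receptor of the network (-2.91 ± 0.65, adjusted p = 0.0122), and Klf4 (-2.38 ± 0.53, adjusted p = 0.0125). Pou5f1 stood at 1787.0 and 2069.2 (adult) and 2217.8 and 1981.2 (embryonic) beside 2817.5 (iPS) and 2462.2 (ES), and Nanog at 145.2, 401.6, 1453.7 and 1844.9 beside 2778.6 and 2389.6. So both adult-derived Nanog signals lay below both embryonic-derived ones, a difference that was not called, while those of Pou5f1 overlapped.

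Of 20 genes around Lin28 and let-7, 13 were tested, with 3 called higher and 3 lower (20.4% and 9.77% of all genes). Ccnd2, a cyclin that let-7 represses, was higher by 4.17 ± 0.20 (SE, limma adjusted p = 2.55e-05), at 1848.5 to 3543.1 on the 4 arrays against 133.3 in iPS and 137.0 in ES cells. It was high in all other cultures too, at 4319.2 in fibroblasts, 1077.9 in GE neurospheres and 1487.7 to 3461.8 in the primary and secondary neurospheres. Drosha, the nuclear nuclease of microRNA maturation, was lower (-1.21 ± 0.26, adjusted p = 0.0111), as was Trim71 (-2.13 ± 0.68, adjusted p = 0.0435), a let-7 target of ES cells, and Ccnd1 was higher (1.0 ± 0.30, adjusted p = 0.0365). Trim71 had 35.4 in adult-derived 1, then 263.4, 509.9 and 366.4, so it was lowest on adult-derived 1, as were all of the 10 genes but L1td1. Its highest signal was on embryonic-derived 3, and that of Lin28a on adult-derived 2.

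Of 20 genes around Nodal and Cripto, 17 were tested, with 2 higher and 1 lower, against the same shares of all genes. Furin, which cleaves the Nodal precursor, was higher (1.44 ± 0.28 SE, limma adjusted p = 0.00756), as was Smad3, a transducer of the signal (1.23 ± 0.25, adjusted p = 0.00900). The receptor gene Acvr2b was lower (-1.25 ± 0.35, adjusted p = 0.0282). Nodal itself, the ligand that needs Tdgf1, read 56.7 and 218.4 (adult) and 198.6 and 243.9 (embryonic) beside 486.9 (iPS) and 727.6 (ES).

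Of 22 genes of FGF receptors and their feedback, 21 were tested, with 6 higher and 0 lower, beside 20.4% of all genes called higher. Sdc1, a heparan sulfate carrier (1.26 ± 0.30 SE, limma adjusted p = 0.0153), Spry1, an inhibitor of the pathway (1.28 ± 0.31, adjusted p = 0.0155), the receptor gene Fgfr1 (1.26 ± 0.34, adjusted p = 0.0245) and Ptpn11 (0.58 ± 0.16, adjusted p = 0.0254) had the smallest values. Between embryonic- and adult-derived cultures 0 genes of the 4 lists were called, with 2 to 9 at an unadjusted p under 0.05.

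The 10 genes varied together. Over the 12 arrays their 45 pairwise Pearson correlations of log2(signal + 5) ran from 0.71 (Lin28a with L1td1) to 0.995, with a median of 0.92, on points that share arrays and pluripotent, derived and negative cultures. Of 13640 other genes, the closest to their mean profile were Nodal, Eras, Nanog and Tfap2c (each r = 0.98) and Gdf3, Nr0b1, AU018091 and Ooep (each r = 0.97). Ooep is the neighbour of Dppa5a on chromosome 9. Eras, a Ras protein of ES cells, was at 216.9 and 260.2 (adult), 548.8 and 620.9 (embryonic) and 0.7 in fibroblasts.

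Some of these genes are also used by other cells. Of the germ cell markers measured, Ddx4 was at 3.4, 8.4, 25.9 and 40.3 on the 4 neurosphere arrays beside 134.1 (iPS) and 124.0 (ES), and Dazl at 0.2, 6.9, 21.5 and 24.2 beside 29.9 and 60.4. Over all 7 measured germ cell markers the sum was 123 and 195.5 (adult), 643 and 766 (embryonic), 806 (iPS) and 1521 (ES), with 6, 5, 2 and 0 of the 7 under 20 on the neurosphere arrays. Tfap2c alone made up most of the sum on each of these 4 arrays (79.8, 112.1, 442.5 and 520.2), beside 403 in iPS and 527.9 in ES cells. Sums of 5 trophoblast markers (Cdx2, Elf5, Tpbpa, Ascl2, Krt7) were 25.8 and 87.5 (adult) and 1547 and 964 (embryonic), beside 45.8 (iPS) and 41.3 (ES), with 5, 2, 2 and 1 of the 5 under 20 on the neurosphere arrays. Tpbpa made up most of the embryonic sums (1324.5 and 687.2, against 3.1 and 0.4 in the adult pair), followed by Krt7 (155.9 and 223.1), while Cdx2, Elf5 and Ascl2 were at 34.3 or lower on all 4 arrays. Sums of 4 epiblast markers were 82.2 and 652 (adult) and 488 and 374 (embryonic), beside 313 (iPS) and 409.5 (ES), and those of 5 primitive endoderm markers were 38.7, 178, 83.3 and 98.9. The part of such cells in the results was not tested.

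Probe sets of one gene did not always match. The other probe set of Sall4 was dimmer, and its shares were 67.6% and 129% (adult) and 139% and 132% (embryonic), so its difference from pluripotent cells was 0.17 (limma adjusted p = 0.774) where the brighter one gave -1.62. The other probe set of Lin28a had shares of 3.15%, 5.61%, 6.71% and 6.57% and was called lower (-3.02 ± 0.54 SE, adjusted p = 0.00468), on signals of 2.3 to 4.9 that are dim. In primary neurospheres that probe set was at 28.1% (iPS) and 130% (ES). For Utf1 and Dppa2 the second probe sets gave shares in the same order of adult under embryonic pair. Fgf4 had another bright probe set with the same order, and a much dimmer one at 20.2 to 37.2 on the 4 arrays and 25.6 in fibroblasts, where adult-derived 1 (55.4% of the pluripotent level) was above adult-derived 2 (41.0%).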

How the data were processed

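RNA of 12 cultures was read on Affymetrix arrays with 45101 probe sets, after Trizol extraction and biotin labelling, per the labels' protocols. The deposited values are linear signal intensities that the authors made with MAS5, as the submitters' processing notes say, which also name Affymetrix Expression Console 1.1 (the MAS5 version and the handling of background are not given in the sources used here). Their 2%-trimmed mean is 100 on every array, which hides a change in total RNA, and dim MAS5 signals are noisy. Arrays give no read depth, so their number limits the precision.

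Probe sets were named through GEO's platform annotation (34945 with 1 symbol, 932 with several and 9160 with none, besides 64 controls), with chromosomes and neighbours from the RefSeq gene table of GRCm38.p6. Tests used log2(signal + 5) of the deposited intensity. Probe sets reaching 20 on at least 1 array entered, and the brightest one naming only a gene stood for it, which left 13650 genes. Groups were compared 2-sided with limma 3.58.1 in R 4.3.3 (lmFit, eBayes with an intensity trend), in 1 fit of 12 arrays and 7 groups (5 residual and 3.63 prior degrees of freedom). P-values were adjusted over the 13650 genes by the method of Benjamini and Hochberg, a gene was called under 0.05, and intervals are 95%. Counts at an unadjusted p under 0.05 stand without the share of all genes at that level. The adult and embryonic pairs of fibroblast-derived arrays were weighted equally. Folds on the log2(signal + 5) scale understate changes of dim genes. The script was tested on simulated data.

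The labels pair pluripotent cells, primary and secondary neurospheres by line. Deviations from the group means correlated by 0.252 (pluripotent and primary), 0.0578 (pluripotent and secondary) and 0.425 (primary and secondary) within a line. Alternatives covered normalization, pseudocount, filter, probe sets, the trend, the replicate block, the samples fitted and each array left out. The separate probe sets were added after seeing the data. The 10 genes and all lists were chosen with earlier results of these data known. Named list genes are the up to 4 with the smallest adjusted p among those called in fibroblast-derived against pluripotent cultures or in embryonic against adult ones, named beside Pou5f1, Nanog, the markers and the 8 genes closest to the mean profile. Trim71's, Nodal's, Eras's and single markers' values by array were picked as examples after they were seen.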

Additional observations from a re-analysis of the deposited data

Results flagged for a closer look

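Over the 4 arrays of fibroblast-derived neurospheres, adult-derived 1 (EGF and cAMP) lay far below the other 3 in Sall4 and Dppa5a on the log2(signal + 5) scale. Its gap to the next array was 0.865 of the whole range for Sall4 (287.5 against 731.8 to 846.2) and 0.863 for Dppa5a (258.9 against 3587.5 to 5424.5). Both exceed the 95% critical value of Dixon's ratio for 4 values, which chance passes in about 1 of 20 sets of values. These 4 arrays are not alike, as they come from 2 kinds of fibroblast and differ in medium, with adult-derived 1 the only one without LIF.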

How the results depend on the processing

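Of 2280 differences of single genes under 23 alternatives, 2264 kept their sign and 16 reversed. Many of these could not change sign. The replicate block, the separate primary groups, the trend and the choice of groups fitted leave the estimate as it was. So does leaving out an array outside the comparison. The count of kept signs is therefore no measure of robustness. The reversed ones were Dppa5a (0.22) and Fbxo15 (0.10) for the embryonic pair against pluripotent cells under quantile normalization, Fbxo15 there without embryonic-derived 4 (0.02), and those without an array that changes the reference. Leaving out an array, the ES array at the upper end and the iPS array at the lower, L1td1 against pluripotent cells ran from -0.97 to 0.11 (all 4 arrays) and -0.81 to 0.27 (adult). Fbxo15 ran from -1.65 to 0.47 (all 4) and -2.11 to 0.0079 (adult), was at 0.94 in the embryonic pair without the ES array, and Lin28a in primary neurospheres ran from -1.45 to 0.48. Against primary neurospheres, from without the iPS-derived to without the ES-derived array, Sall4 ran from -0.84 to 1.71, Utf1 from -0.98 to 3.23, Dppa2 from -1.18 to 4.44, Dppa4 from -1.47 to 3.70 and Dppa5a from -0.99 to 6.25. Without the iPS-derived one Lin28a in primary against pluripotent cells was 0.30. Lin28a in embryonic against adult cultures ran from -0.82 without adult-derived 1 to 2.83 without adult-derived 2. On its other probe set, an alternative added after seeing the data, Sall4 was at 0.17 against pluripotent cells over all 4 arrays and 0.43 in the embryonic pair. For these the cause was not tested.

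Counts of the 10 genes called also moved, and so did those over all genes, given in either direction after a slash. For all 4 fibroblast-derived arrays against pluripotent cells (0/4122 called) they were 1/4845 with every array at the same median, 1/3876 with the mean of probe sets, 2/4927 with the replicate block, 5/4115 with only the groups compared, 4/4403 with primary neurospheres as separate groups, and 0 to 4 (2099 to 4401) on leaving out an array. For the adult pair (0/2926) they were 1/3377 at the same median, 1/2774 with pseudocount 20, 1/2729 with the mean of probe sets, 4/3740 with the replicate block, 4/1343 with only these groups, 6/3223 with separate primary groups, and 0 to 6 (1256 to 3213) on leaving out an array. For the embryonic pair (0/3389) only the fit of these groups moved it, to 4/2680. Against fibroblasts (5/3169) the replicate block gave 9/3896, only these groups 8/4681, separate primary groups 9/3456, and leaving out an array 5 to 9 (2005 to 3696). Against primary neurospheres (3/4080) pseudocount 1 gave 1/3884, only these groups 0/4224, and leaving out an array 0 to 8 (1815 to 4582). Against secondary neurospheres (7/4591) leaving out an array gave 2 to 10 (2429 to 5076), against GE neurospheres (7/3880) 5 to 10 (2865 to 4388), and for secondary neurospheres against pluripotent cells (9/6099) 6 to 10 (4063 to 6289). For primary neurospheres against pluripotent cells (3/4109) the same median gave 5/4521, the replicate block 8/5003, only these groups 0/1388, separate primary groups 8/4524, and leaving out an array 0 to 9 (1555 to 4539). For embryonic against adult cultures every setting gave 0. The replicate block changed no call of the 10 genes for the embryonic pair against pluripotent cells or against the adult pair.

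The median share of the embryonic pair, 53.4%, was 73.8% with the iPS array alone as reference, 40.5% with the ES array alone, 58.0% with the mean over probe sets, 38.2% with every array at the same median and 65.7% under quantile normalization. Over all genes tested, the median difference from pluripotent cells shifted by -0.16 (quantile normalization) and -0.35 (same median). The same median moved the share of calls that were higher, over all genes, from 67.6% to 38.8% (all 4 arrays), 70.1% to 42.9% (adult), 70.2% to 37.9% (embryonic), 64.7% to 35.4% (against fibroblasts), 52.3% to 41.5% (against primary), 50.4% to 60.6% (against secondary), 64.1% to 48.8% (primary against pluripotent) and 58.9% to 35.8% (secondary against pluripotent). Signals under 20 have little meaning beyond being dim.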
